A study of Homo sapiens with 18 samples.

Results

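The semaphorins, plexins and neuropilins were followed in 18 RNA sequencing libraries of MiaPaCa-2, a cell line long grown from a human pancreatic carcinoma. Genes were chosen by symbol alone: the semaphorins of classes 3 to 7, the plexins of classes A to D and the 2 neuropilins. This gave 31 genes of the 57445 in the count file, of which 20 encode semaphorins and 9 plexins. Of the semaphorins, 7 are secreted proteins of class 3, 12 are transmembrane proteins of classes 4 to 6, and SEMA7A is held in the membrane by a lipid (GPI) anchor. The 6 groups held 3 libraries each. The parental cells were grown in vitro and never injected. Laggers and leaders of passage 1 were recovered after injection into the sciatic nerve (of a host whose species the labels do not name), and leaders of passages 2, 3 and 4 came from leader cells that were grown in vitro and injected again. All groups are the same line with the genotype given as WT. The labels do not say whether replicates are separate cultures, animals or preparations, and p-values then cover only the spread between these samples, which may be technical. Whether RNA was taken at harvest or after growth in vitro is not stated either.

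Semaphorins are guidance cues, best known for repelling growing axons, and plexins are the receptors that carry their signal into the cell. Most class 3 semaphorins bind a neuropilin, which holds the ligand and passes the signal on through a plexin of class A or D, while membrane-bound semaphorins bind plexins directly. Inside the cell plexins act on small GTPases and on the actin skeleton, and they steer blood vessels, immune cells and tumour cells as well as axons. Neuropilins also bind vascular endothelial growth factors (VEGF).

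Libraries held 15113462 to 39373248 counts assigned to genes. The share of mitochondrial transcripts was 0.472% to 0.873% for parental cells, and for injected cells it was 1.95% to 8.57%. In 3 libraries, parental replicate 3, lagger replicate 3 and passage 3 leader replicate 2, genes rich in G and C read high, by 0.649, 0.6 and 0.336 on the log2 scale per 10 points of GC content, against -0.247 to 0.21 in the others. Many members are GC-rich, for example SEMA6B at 67.7% and PLXNB3 at 65.1% of the bases of their longest transcript. Counts against the parental line are therefore also given from a fit with offsets for GC content and exon length. KRT8 and KRT18, keratins of epithelial cells, averaged at least 2420 CPM in every group. Levels are CPM, counts relative to a library total that was corrected for composition with TMM factors (a trimmed mean of log ratios). The edgeR filter on low counts passed 25 of the 31 members, and 21 of these exceeded its value on average in all 6 groups. Members were called changed at a Benjamini-Hochberg adjusted p under 0.05 in edgeR's quasi-likelihood test, adjusted over all 16187 tested genes.

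In the parental line, compared per length (CPM per kilobase of exon, kb), ligands of class 3 and plexins of class B and A led. SEMA3C, a secreted ligand that binds both neuropilins, stood highest among semaphorins at 120 ± 54.5 CPM per kb (SD, n = 3). SEMA3A, the classic repellent of sensory axons, followed at 44.2 ± 13.4 CPM per kb and SEMA4B, a membrane-bound ligand, at 33.3 ± 11.7, a pair whose spreads overlapped. Among the plexins PLXNB2, a receptor of class 4 semaphorins, led with 52.0 ± 19.2 CPM per kb, ahead of PLXNA1, a receptor that works with neuropilins, with 22.7 ± 14.1, and PLXND1, a receptor of class 3 ligands known from blood vessels, with 15.9 ± 5.54. NRP2, the neuropilin that prefers SEMA3F, stood at 12.0 ± 0.865 CPM per kb against 5.74 ± 0.725 for NRP1, the neuropilin of SEMA3A. These per-length levels placed SEMA3C at 47.0 ± 12.6% of the summed semaphorin level and PLXNB2 at 55.3 ± 4.17% of the summed plexin level.

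By passage 4 the make-up had turned over. PLXNA1 took 65.6 ± 4.38% of the plexin sum and PLXNB2 29 ± 3.82%. SEMA6B, a transmembrane ligand of A-class plexins, took 31.1 ± 4.05% of the semaphorin sum and SEMA3B, a secreted ligand, 19.5 ± 8.69%, while SEMA3C was down to 7.36 ± 4.20%. The plexin sum per kb was 95.7 ± 41.1 in the parental line, 70.1 ± 5.07 in passage 1 leaders and 255 ± 109 in passage 4 leaders, whose libraries (168 to 378) stood above the parental ones (69.8 to 143). The semaphorin sum overlapped between parental (205 to 305), passage 1 leader (142 to 219) and passage 4 leader libraries (163 to 296 CPM per kb).

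**Figure D1:**
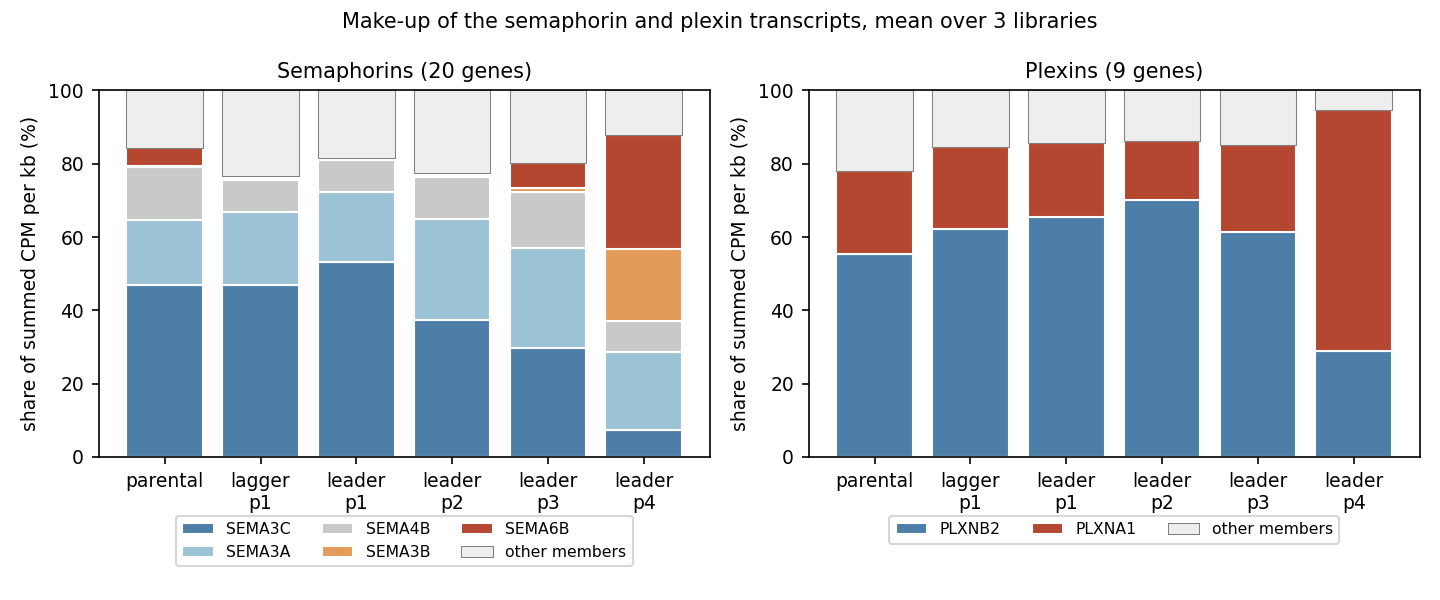
Stacked bars give the mean share, over 3 libraries, of each named gene in the summed CPM per kb of the 20 semaphorins (left) and the 9 plexins (right) in the 6 groups, from 0 to 100%. At passage 4 SEMA6B and SEMA3B take the place of most of SEMA3C, and PLXNA1 rises to 65.6% of the plexin sum.

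Leaders were first set against laggers of the same passage, the comparison of cells at the front with cells at the rear. None of the 25 tested members was called (edgeR), and 0.0618% of all tested genes were, 0.0185% higher and 0.0432% lower in leaders. At an unadjusted p under 0.05 there were 4 members. The share of all tested genes under that unadjusted threshold was not counted, so these 4 have no background to be judged against. The smallest adjusted p was 0.262 (edgeR), and DESeq2 and limma-voom also called 0. The intervals still allowed sizeable differences. SEMA3D, a secreted ligand of neuropilins, measured 171, 118 and 130 CPM in the leaders and 90.8, 56.0 and 40.1 in the laggers, a log2 difference of 1.16 (95% interval 0.20 to 2.12, edgeR adjusted p = 0.283). Its 2 groups did not overlap. SEMA7A, SEMA6C and PLXND1 were the other 3 members, with lower means in leaders and log2 differences of -1.72, -1.08 and -0.80. Their longest transcripts are 60.5%, 64.1% and 63.5% GC, against 34.9% for SEMA3D. Lagger replicate 3 leaned to GC-rich genes (0.6 per 10 points), and the passage 1 leaders did not (-0.241 to -0.16). The part of this lean in the 4 differences was not tested, and with GC offsets 0 members were called. NRP2 differed by 0.04, with an interval from -0.86 to 0.94, and PLXNA1 by -0.60, with an interval from -1.83 to 0.63.

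Against the parental line, members that changed were mostly lower in the injected cells. In laggers 2 members were higher and 9 lower, where 39.3% of all tested genes were called, 21.5% higher and 17.8% lower. Passage 1 leaders had 3 higher and 10 lower (background 45.7%, of which 23.2% higher and 22.4% lower). Passage 2 gave 4 higher and 6 lower (29.9%, with 15.1% higher and 14.8% lower), passage 3 gave 1 and 6 (24.6%, with 13.8% and 10.8%), and passage 4 gave 5 and 8 (27.7%, with 14.8% and 12.9%). As shares of the 25 members, the called ones were 44%, 52%, 40%, 28% and 52%, close to or above the share of all genes. These 5 comparisons share the parental libraries. Median log2 changes of the members were -0.45, -0.41, -0.33, -0.02 and -0.31 in that order, beside 0.09, 0.07, 0, 0.01 and 0.04 over all tested genes.

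The split between directions depended on the correction for GC content. With offsets for GC content and length the same comparisons gave 6 higher and 9 lower in laggers, then 7 and 8, 7 and 7, 7 and 4, and 7 and 5 in leaders of passages 1 to 4. Over all genes in that fit 17.3% to 24.5% were then higher and 15.4% to 23.9% lower. Plexins were among the added calls. PLXNA3, a receptor of class A, was then called higher in all 5 groups, by 0.84 to 1.16, and PLXNB2 in all 5, by 0.67 to 1.08, whereas without offsets the largest change of PLXNB2 was 0.47 (edgeR adjusted p = 0.253). Without parental replicate 3, the library that leaned most to GC-rich genes, passage 4 gave 4 higher and 2 lower and laggers 2 higher and 5 lower. Passage 4 also went to 4 higher and 4 lower without leader replicate 1, and to 4 and 2 without leader replicate 2. At passage 3, where 7 members were called, leaving out parental replicate 1 or 2, or leader replicate 1 or 3, left 4. A fit of only the compared groups also ended the lagger calls of NRP1, PLXND1, SEMA3G and SEMA4F, those of SEMA6A and PLXNC1 in passage 1 leaders, those of SEMA3C and PLXNC1 at passage 3 and that of SEMA4F at passage 4. With no filter on low counts the calls of SEMA3G in laggers, PLXNC1 at passages 1 and 3 and SEMA4F at passage 4 were lost, and limma-voom lost those of PLXNC1 at passages 1 and 3.

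**Figure D2:**
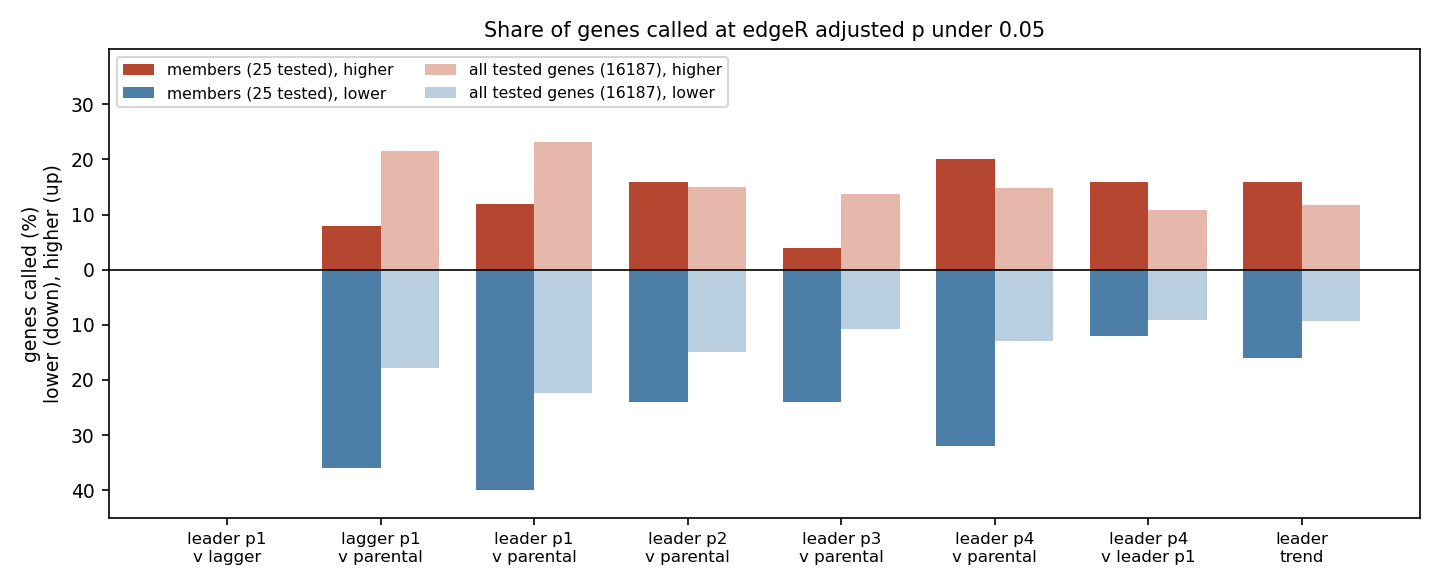
Bars give the percentage of genes called higher (up) or lower (down) in each comparison, for the 25 tested members (dark) and for all 16187 tested genes (light), from the fit without GC offsets. Against the parental line more members are lower than higher in all 5 groups, which with GC offsets holds only in laggers and passage 1 leaders.

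**Figure D3:**
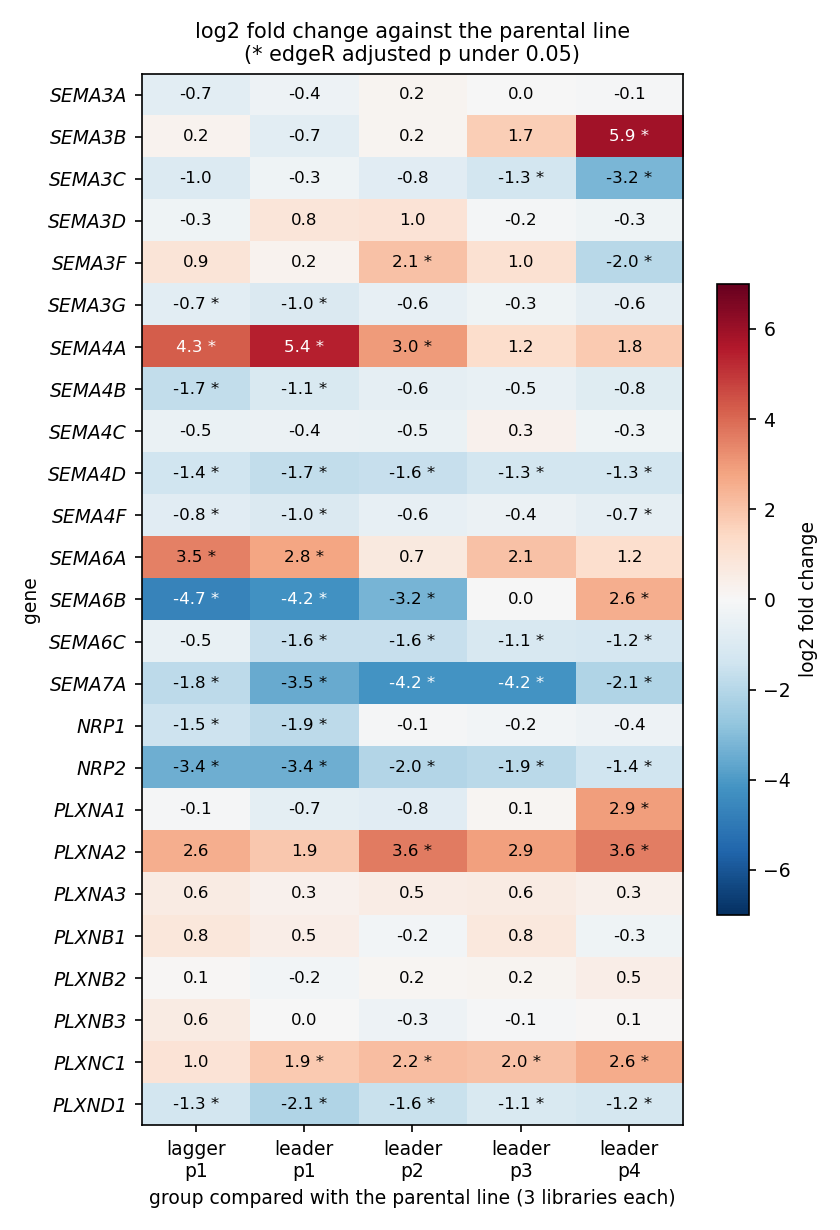
The map gives the log2 fold change against the parental line for the 25 tested members (rows) in the 5 injected groups (columns), with called values starred, from the fit without GC offsets. NRP2, PLXND1, SEMA4D and SEMA7A are lower and starred in every column, and SEMA6B goes from -4.7 in laggers to 2.6 in passage 4 leaders, while with GC offsets PLXNB2 and PLXNB3 turn positive in passage 1 leaders.

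Without GC offsets, 4 of the 25 tested members were lower than in the parental line in all 5 injected groups: NRP2, PLXND1, SEMA4D and SEMA7A. The number higher in all 5 was 0. With offsets PLXND1 was not called at passages 3 and 4, and PLXNA3 and PLXNB2 were called higher in all 5. The share of all tested genes called in all 5 groups was not counted, and the 5 comparisons share the parental libraries. NRP2 measured 161, 159 and 181 CPM in the parental libraries. Laggers had 15.4, 5.37 and 25.6 CPM and passage 1 leaders 18.6, 21.5 and 7.51. Each parental library was thus above every injected one, and the fall was 3.44 ± 0.46 SE on the log2 scale in laggers (edgeR adjusted p = 4.21e-05), with a log2 change of -3.40 ± 0.46 in passage 1 leaders (edgeR adjusted p = 3.34e-05). In later passages NRP2 came part of the way back, to 30.9, 54.2 and 37.9 CPM at passage 2, 50.01, 45.1 and 42.4 at passage 3, and 76.1, 52.0 and 64.8 at passage 4. Passage 4 leaders exceeded passage 1 leaders by 2.02 ± 0.44 (edgeR adjusted p = 0.00459), and all 3 were still under the parental range, at -1.38 ± 0.42 (edgeR adjusted p = 0.0238). That last call was lost without parental replicate 3 (-1.32), leader replicate 2 (-1.29) or leader replicate 3 (-1.42).

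NRP1 was called lower in both passage 1 groups. Parental libraries held 56.6, 72.0 and 69.8 CPM. Passage 1 leaders, at 17.9, 18.8 and 18.1 CPM, lay close together and well below them (-1.86 ± 0.54, edgeR adjusted p = 0.0105). In laggers the values were scattered, at 43.7, 4.60 and 24.2 CPM (-1.45 ± 0.54, edgeR adjusted p = 0.0406). Leaving out lagger replicate 1 moved the lagger value to -2.21, leaving out any other compared library ended the call (-0.96 without lagger replicate 2, edgeR adjusted p = 0.0776), and so did GC offsets (-1.18, edgeR adjusted p = 0.0853). From passage 2 on NRP1 was not called: 37.6, 67.1 and 80.0 CPM, then 65.3, 55.9 and 52.0, then 75.8, 52.7 and 24.4. The difference of NRP1 between passages 1 and 4 was 1.48 (edgeR adjusted p = 0.0613), called only with DESeq2, with no filter on low counts or in a fit of the compared groups alone. Because these are bulk libraries, fewer cells with a transcript and less of it per cell cannot be told apart.

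PLXND1, which pairs with neuropilins for class 3 ligands and binds SEMA3E without one, measured 126.5, 121 and 217 CPM in parental cells. Laggers had 32.2, 72.6 and 85.7 CPM, and passage 1 leaders 38.9, 24.3 and 46.3. The log2 changes were -1.29 ± 0.38 (edgeR adjusted p = 0.0131) and -2.09 ± 0.39 (edgeR adjusted p = 0.000458). Passage 2 leaders held 52.2, 61.7 and 41.4 CPM (-1.58 ± 0.38, edgeR adjusted p = 0.00559). At passage 3, with 53.3, 105 and 63.4 CPM, and passage 4, with 80.3, 43.6 and 73.8, the changes were -1.07 and -1.23, and neither call held with GC offsets (-0.49 and -0.59). Offsets also brought the change in passage 1 leaders to -1.0 and at passage 2 to -0.78, both still called. Without parental replicate 3 the calls in laggers (-0.97), at passage 3 (-0.75) and at passage 4 (-0.91) were lost. The passage 3 call was also lost without parental replicate 1 or 2 or leader replicate 1 or 3 (-0.88 to -1.20), and that of passage 4 without leader replicate 2 (-1.04).

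SEMA4D, the ligand of PLXNB1 that is also known as CD100 on immune cells, was the steadiest of the fallen ligands. Its parental values were 32.7, 35.1 and 49.4 CPM. Injected libraries ranged from 7.89 to 20.6 CPM, with no overlap with the parental ones, and the log2 changes ran from -1.26 at passage 3 (edgeR adjusted p = 0.00772) to -1.74 in passage 1 leaders (edgeR adjusted p = 0.000383). All 5 calls were kept under every alternative run. Its main receptor PLXNB1 was not called in any comparison without offsets.

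SEMA7A, which binds PLXNC1 and beta 1 integrin, was scarce throughout, at 3.71, 2.68 and 5.36 CPM in parental cells. It was nearly lost in passage 1 leaders, with 1, 8 and 14 counts or 0.0368, 0.396 and 0.581 CPM (-3.53 ± 0.72, edgeR adjusted p = 0.000932, and -4.21 without leader replicate 3). Passages 2 and 3 stayed at 0.0533 to 0.332 CPM (-4.19 and -4.16). Laggers, at 0.709, 1.10 and 1.54 CPM, and passage 4 leaders, at 0.938, 0.708 and 1.02, lay between (-1.81 and -2.13). The lagger call was lost without parental replicate 1 or 3 or lagger replicate 1 or 2 (-1.52 to -1.85), and the passage 4 call without parental replicate 3 or leader replicate 1 or 2 (-1.84 to -2.18).

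**Figure D4:**
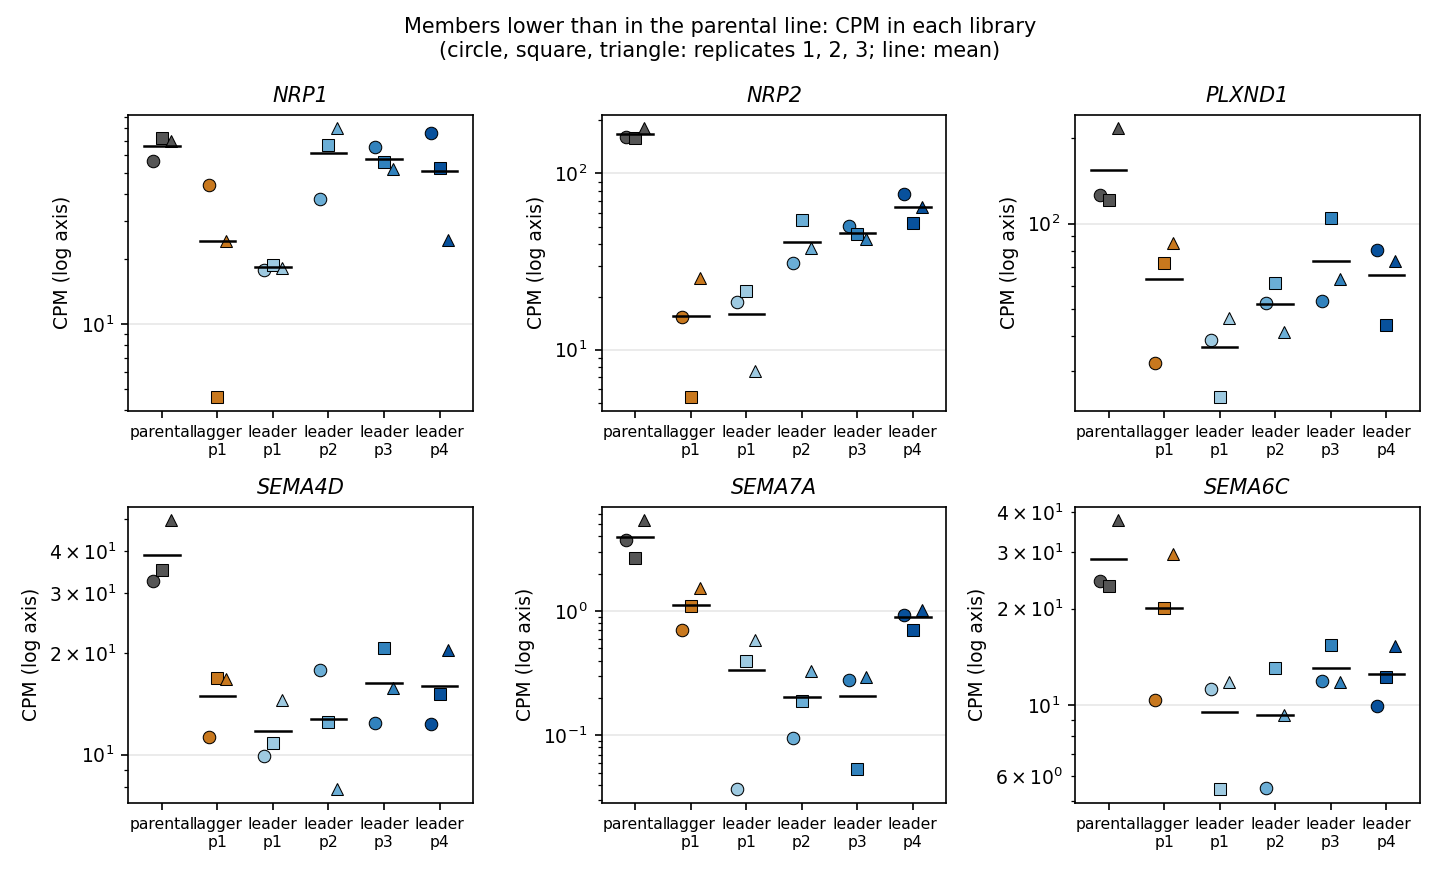
Each panel shows CPM on a log axis for 1 gene in all 18 libraries, by group, with 3 symbols for the replicates and a line at the mean. Parental NRP2 values of 159 to 181 CPM stand above all injected libraries, and NRP1 is lowest on average in passage 1 leaders. All laggers and some libraries of each later passage are also under the parental NRP1 range of 56.6 to 72.0 CPM. The lowest of these later libraries are at 37.6 CPM for passage 2, 52.0 for passage 3 and 24.4 for passage 4 (replicate 3).

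Other transmembrane ligands fell in some groups. SEMA6C, a class 6 ligand, measured 24.4, 23.6 and 37.8 CPM in parental cells, 11.2, 5.44 and 11.8 in passage 1 leaders (-1.59 ± 0.40, edgeR adjusted p = 0.00394), and 5.49, 13.1 and 9.29 at passage 2 (-1.62 ± 0.40, edgeR adjusted p = 0.00625). With GC offsets its change was -0.67 in passage 1 leaders, no longer called, and -0.92 at passage 2, still called. At passage 3, with 11.9, 15.4 and 11.8 CPM, and at passage 4, with 9.91, 12.2 and 15.3, its changes were -1.13 and -1.19. Neither held with offsets (-0.57 and -0.59), the first was lost without any 1 of its 6 libraries (-0.88 to -1.27), and the second without parental replicate 3 or leader replicate 1 or 2 (-0.94 to -1.21). Laggers, at 10.4, 20.1 and 29.6 CPM, overlapped with the parental range.

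SEMA4B measured 198, 174 and 327 CPM in parental cells and 55.4, 59.9 and 96.7 in laggers, with no overlap (-1.72 ± 0.37, edgeR adjusted p = 0.00166), a call kept under every alternative run. In passage 1 leaders, at 140, 66.7 and 131 CPM, the change was -1.05 ± 0.36 (edgeR adjusted p = 0.0251). This was lost with GC offsets (-0.08), without parental replicate 3 (-0.73) and without leader replicate 2 (-0.72). Later passages, at 82.2 to 211 CPM, were not called. SEMA4F, a class 4 ligand of the nervous system, fell from 52.6, 49.1 and 77.6 CPM to 32.7, 30.9 and 24.5 in passage 1 leaders (-1.02 ± 0.22, edgeR adjusted p = 0.0012), a call kept under every alternative run. Its changes in laggers, at 31.8, 31.6 and 42.0 CPM (-0.77), and at passage 4, at 35.1, 32.9 and 46.2 CPM (-0.65), were lost without parental replicate 3 (-0.54 and -0.42), the latter also without leader replicate 1 or 2 (-0.62 and -0.59) and with GC offsets (-0.35).

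SEMA3G, a secreted ligand of NRP2 known from blood vessels, went from 7.59, 8.02 and 9.10 CPM to 4.49, 2.97 and 4.77 in passage 1 leaders (-1.01 ± 0.26, edgeR adjusted p = 0.00504). With GC offsets the change was -0.41, not called. In laggers, at 4.96, 4.84 and 4.97 CPM, the change of -0.74 was lost with GC offsets (-0.43) and without any compared library other than parental replicate 1 (-0.66 to -0.75).

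Fewer members rose at passage 1. SEMA4A, a class 4 ligand known from immune cells and the retina, was near absent in parental cells, with 10, 4 and 0 counts, or 0.249, 0.102 and 0 CPM. Laggers had 1.18, 3.69 and 2.52 CPM and passage 1 leaders 6.26, 5.84 and 4.77, with no overlap in either case. The rises were 4.26 ± 1.07 (edgeR adjusted p = 0.00524) and 5.45 ± 1.11 (edgeR adjusted p = 0.00092). They were larger without parental replicate 1, at 5.27 and 6.45, and both were called with every library left out in turn. SEMA4A then declined, to 1.29, 0.516 and 1.18 CPM at passage 2, 0, 0.0533 and 0.760 at passage 3, and 0.0893, 0.333 and 0.892 at passage 4. Its slope over the 4 leader passages was -1.26 ± 0.32 log2 per passage (edgeR adjusted p = 0.0105), kept under every alternative run. The change from passage 1 to 4 was -3.64 ± 1.0 (edgeR adjusted p = 0.0178), lost without passage 4 replicate 1 (-3.18) or 2 (-3.48) and -4.69 without replicate 3. With GC offsets the rise in passage 1 leaders was 6.04. The rise over parental cells at passage 2 (2.96, edgeR adjusted p = 0.042) was lost without parental replicate 2 or 3 or leader replicate 1 or 3 (2.47 to 2.85), and moved to 3.98 without parental replicate 1.

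SEMA6A, a ligand of PLXNA2 and PLXNA4, had 0.249, 0.102 and 1.30 CPM in parental cells and 1.84, 10.5 and 6.37 in laggers (3.54 ± 0.91, edgeR adjusted p = 0.00594). The lagger value was 5.11 without parental replicate 3 and 2.93 without lagger replicate 2, called both times. Passage 1 leaders, at 2.80, 0.841 and 7.39 CPM, overlapped with the parental range. Their rise of 2.78 (edgeR adjusted p = 0.0173) was lost without leader replicate 3 (1.77) or parental replicate 1 or 2 (2.42 and 2.28), and was 4.35 without parental replicate 3. SEMA6A was not called at passages 2 to 4, at 0.369 to 2.99 CPM.

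Receptors that rose against parental cells without a group mean above 5 CPM were PLXNC1 and PLXNA2. PLXNC1, the receptor of SEMA7A, stood at 0.259 to 0.348 CPM in parental cells and 1.29 to 2.64 at passage 4 (2.58 ± 0.69, edgeR adjusted p = 0.0112), a call kept under every alternative run. Its smaller rises at passages 1, 2 and 3 (1.85, 2.17 and 2.05) were each lost without at least 4 of 6 libraries, with log2 values of 1.08 to 2.23. These were any parental library each time, with leader replicates 1 and 3 at passage 1, 2 and 3 at passage 2, and 3 at passage 3. PLXNA2, a receptor of class 6 ligands, stood at 0 to 0.434 CPM in parental cells and was called at passage 2, at 1.55 to 3.24 CPM (3.63), and at passage 4, at 1.52 to 3.37 CPM (3.58). Both calls were lost without any compared library other than parental replicate 2 (3.05 to 3.84), and without that library the values were 5.58 and 5.51. In limma-voom they were 4.43 and 4.36.

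The largest changes came with serial passage. Between passage 1 and passage 4 leaders 4 members rose and 3 fell, where 20% of all tested genes were called, 10.8% higher and 9.17% lower. With GC offsets 4 rose and 5 fell, where 15.7% of all genes in that fit rose and 13.7% fell. The median log2 change was 0.37 over the members and -0.02 over all tested genes. Over the 4 leader passages the slope was called for 4 members upward and 4 downward (background 21.1%, of which 11.7% upward and 9.38% downward). Of all 16187 genes ranked by the change from passage 1 to 4, SEMA6B was number 45 from the highest, SEMA3B number 54 and PLXNA1 number 190.

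SEMA6B, a class 6 ligand of PLXNA4 and PLXNA2, first fell and then rose past the parental level. Parental cells had 40.6, 34.4 and 74.2 CPM. Laggers held 1.84, 0.623 and 3.43 CPM and passage 1 leaders 3.28, 1.53 and 3.03, all under the lowest parental library (-4.70 ± 0.60, edgeR adjusted p = 2.9e-05, and -4.24 ± 0.58, edgeR adjusted p = 3.69e-05). Passage 2 leaders, at 3.49, 5.35 and 6.82 CPM, lay just above the passage 1 leaders, and passage 3 leaders, at 23.4, 53.6 and 69.7, overlapped with the parental range. At passage 4 the 3 libraries held 206, 212 and 467 CPM, above all others. The change was 6.81 ± 0.65 from passage 1 (edgeR adjusted p = 8.14e-06) and 2.57 ± 0.52 from parental cells (edgeR adjusted p = 0.00199). All 6 calls of SEMA6B were kept under every alternative run. GC offsets moved the changes against parental cells by over 1.5 times, to -3.38 in passage 1 leaders, -2.51 at passage 2 and 3.20 at passage 4.

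SEMA3B, a secreted ligand of both neuropilins whose gene lies in a region of chromosome 3 often lost in lung cancer, was high at passage 4 alone. Parental libraries held 1.29, 1.71 and 10.2 CPM, laggers 4.35, 5.17 and 5.67, passage 1 leaders 0.773, 3.71 and 3.49, and passage 2 leaders 5.54, 6.28 and 2.99. Passage 3 leaders spread from 2.27 and 8.37 to 31.6 CPM, and passage 4 leaders had 190, 99.9 and 479. The passage 4 libraries were above all others, while passage 3 replicate 3 was the one library between. From passage 1 the rise was 6.60 ± 1.07 (edgeR adjusted p = 0.000663), and from parental cells 5.89 ± 1.02 (edgeR adjusted p = 0.000603). Without leader replicate 3 of passage 4 they were 5.78 and 5.04, and without parental replicate 3 the second was 7.41. GC offsets gave 6.69 against parental cells.

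PLXNA1, the partner of NRP1 in SEMA3A signalling, was the abundant receptor that rose. Its values were 192, 130 and 423 CPM in parental cells, 134.5, 170.5 and 396 in laggers, 230, 60.8 and 171 in passage 1 leaders, 129, 163 and 142 at passage 2, and 118, 211 and 482.5 at passage 3. These groups overlapped. All passage 4 libraries stood apart, at 1582, 1124 and 2887 CPM. The change from passage 1 was 3.60 ± 0.64 (edgeR adjusted p = 0.0013) and from parental cells 2.91 ± 0.62 (edgeR adjusted p = 0.00272). Against parental cells it was 3.53 without parental replicate 3 and 3.56 with GC offsets. In passage 3 leaders replicate 1 was lowest and replicate 3 highest for PLXNA1, SEMA3B and SEMA6B alike, and in passage 4 leaders replicate 3 was highest for all 3 genes.

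Because PLXNA1 and SEMA3B rose together while SEMA3C fell, their promoters are set side by side, from 250 bases before to 50 after the start that RefSeq lists (GRCh38.p14). Capitals mark the GC box GGGCGG on either strand. The RefSeq start lies 5.48 kb upstream of the GENCODE 29 gene start for PLXNA1 and 5.56 kb downstream of it, inside the gene, for SEMA3B, while for SEMA3C the starts are 30 bases apart. Which start these cells used was not tested. SEMA6B is not in the promoter table used here.
PLXNA1 at chr3:126982865-126983164, plus strand: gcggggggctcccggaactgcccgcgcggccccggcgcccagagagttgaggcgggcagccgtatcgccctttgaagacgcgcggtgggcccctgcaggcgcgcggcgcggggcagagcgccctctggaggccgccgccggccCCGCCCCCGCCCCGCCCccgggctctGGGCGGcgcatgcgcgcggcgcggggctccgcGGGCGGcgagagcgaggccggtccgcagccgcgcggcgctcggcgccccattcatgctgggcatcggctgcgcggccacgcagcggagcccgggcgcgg
SEMA3B at chr3:50272869-50273168, plus strand: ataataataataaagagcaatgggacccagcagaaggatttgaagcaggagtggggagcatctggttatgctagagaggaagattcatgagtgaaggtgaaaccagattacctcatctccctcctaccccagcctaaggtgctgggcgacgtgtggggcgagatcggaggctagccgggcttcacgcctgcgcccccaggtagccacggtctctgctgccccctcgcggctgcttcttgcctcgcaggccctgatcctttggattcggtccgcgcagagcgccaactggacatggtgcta
SEMA3C at chr7:80922340-80922639, minus strand: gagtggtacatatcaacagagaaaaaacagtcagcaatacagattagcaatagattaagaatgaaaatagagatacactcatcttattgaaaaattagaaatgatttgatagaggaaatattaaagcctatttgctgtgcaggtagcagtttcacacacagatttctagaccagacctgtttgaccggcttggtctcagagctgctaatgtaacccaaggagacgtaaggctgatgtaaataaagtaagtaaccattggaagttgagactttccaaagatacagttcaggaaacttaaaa
The PLXNA1 window is 83% G and C and holds 5 GC boxes. That of SEMA3B is 57.7% G and C, near the median of 58.3% over all promoters, and that of SEMA3C 36%, and neither holds a GC box. Over both strands and counting overlaps, GGGCGG occurs in 44.6% of 27305 promoters of this length and in 19 of the 27 member promoters in the table (70.4%). The other 3 motifs were searched the same way. The AP-1 motif TGANTCA occurs in 7.76% of all promoters and 1 member, the hypoxia core ACGTG in 21.6% and 6 members, and the E-box CANNTG in 68.9% and 17 members. PLXNA1 holds none of these 3, and SEMA3B has 1 ACGTG and 2 CANNTG. A match is a description of the letters and not a site of binding.

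SEMA3C, the main semaphorin of the parental line, went the other way. Parental libraries held 712.5, 1109 and 429 CPM, laggers 552, 346 and 243, and leaders 748, 466 and 594 at passage 1, 415, 421 and 450 at passage 2 and 229, 216.5 and 479 at passage 3. At passage 4 it stood at 93.0, 108 and 48.1 CPM, below every other library. The change was -2.86 ± 0.42 from passage 1 (edgeR adjusted p = 0.000312) and -3.18 ± 0.42 from parental cells (edgeR adjusted p = 6.89e-05), kept under every alternative run. An earlier fall at passage 3 (-1.28, edgeR adjusted p = 0.0268) was lost without parental replicate 2 (-0.88) or leader replicate 1 or 2 (-1.13 and -1.08). Its change in laggers (-0.98, edgeR adjusted p = 0.0578) was called with DESeq2 (-0.96), with no filter (-1.07), with GC offsets (-0.76), and without parental replicate 3 (-1.26) or lagger replicate 1 (-1.35).

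SEMA3F, a repellent that acts through NRP2, lies beside SEMA3B on chromosome 3 and moved the opposite way at passage 4. In GENCODE 29 (GRCh38) SEMA3F spans chr3:50155045-50189075 and SEMA3B chr3:50267558-50277546, both on the plus strand. SEMA3F measured 6.67, 7.02 and 13.8 CPM in parental cells, 5.24, 7.76 and 38.7 in laggers and 11.6, 6.28 and 14.7 in passage 1 leaders. It peaked at passage 2, with 28.0, 63.3 and 24.3 CPM (2.07 ± 0.67 against parental cells, edgeR adjusted p = 0.0274), and passage 3 gave 8.85, 29.3 and 18.5. Passage 4 leaders held 1.34, 3.08 and 2.58 CPM, the lowest of all libraries. Its change was -2.21 ± 0.69 from passage 1 (edgeR adjusted p = 0.0322) and -1.97 ± 0.68 from parental cells (edgeR adjusted p = 0.0416). These 2 calls were lost in limma-voom and without most single libraries (passage 1 replicate 1 or 3 for the first, parental replicate 2 or 3 for the second, any of passage 4 for both), with values of -1.94 to -2.47 and -1.55 to -2.24. The second was also lost with GC offsets (-1.39). The passage 2 call was lost without leader replicate 2 (1.52) or parental replicate 1 or 2 (1.88 and 1.93), and was 2.71 with GC offsets. The slope over passages was -0.77 ± 0.22 log2 per passage (edgeR adjusted p = 0.02), lost without passage 1 replicate 3 or passage 4 replicate 1 or 3 (-0.68 to -0.79). An antisense gene, SEMA3F-AS1, overlaps 2.28% of SEMA3F exon bases, and the libraries do not mark strand.

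SEMA3D varied within a narrower range. Leaders had 171, 118 and 130 CPM at passage 1, 148, 138 and 168 at passage 2, 57.2, 28.1 and 124 at passage 3 and 67.3, 74.8 and 46.7 at passage 4. Its slope was -0.46 ± 0.14 log2 per passage (edgeR adjusted p = 0.0333). That call was lost without passage 1 replicate 1 or 3 or any passage 4 library (-0.41 to -0.51). The change from passage 1 to 4 was -1.15 (edgeR adjusted p = 0.0827), called with GC offsets (-1.12), DESeq2 (-1.19), no filter (-1.16) and the compared groups alone (-1.17).

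**Figure D5:**
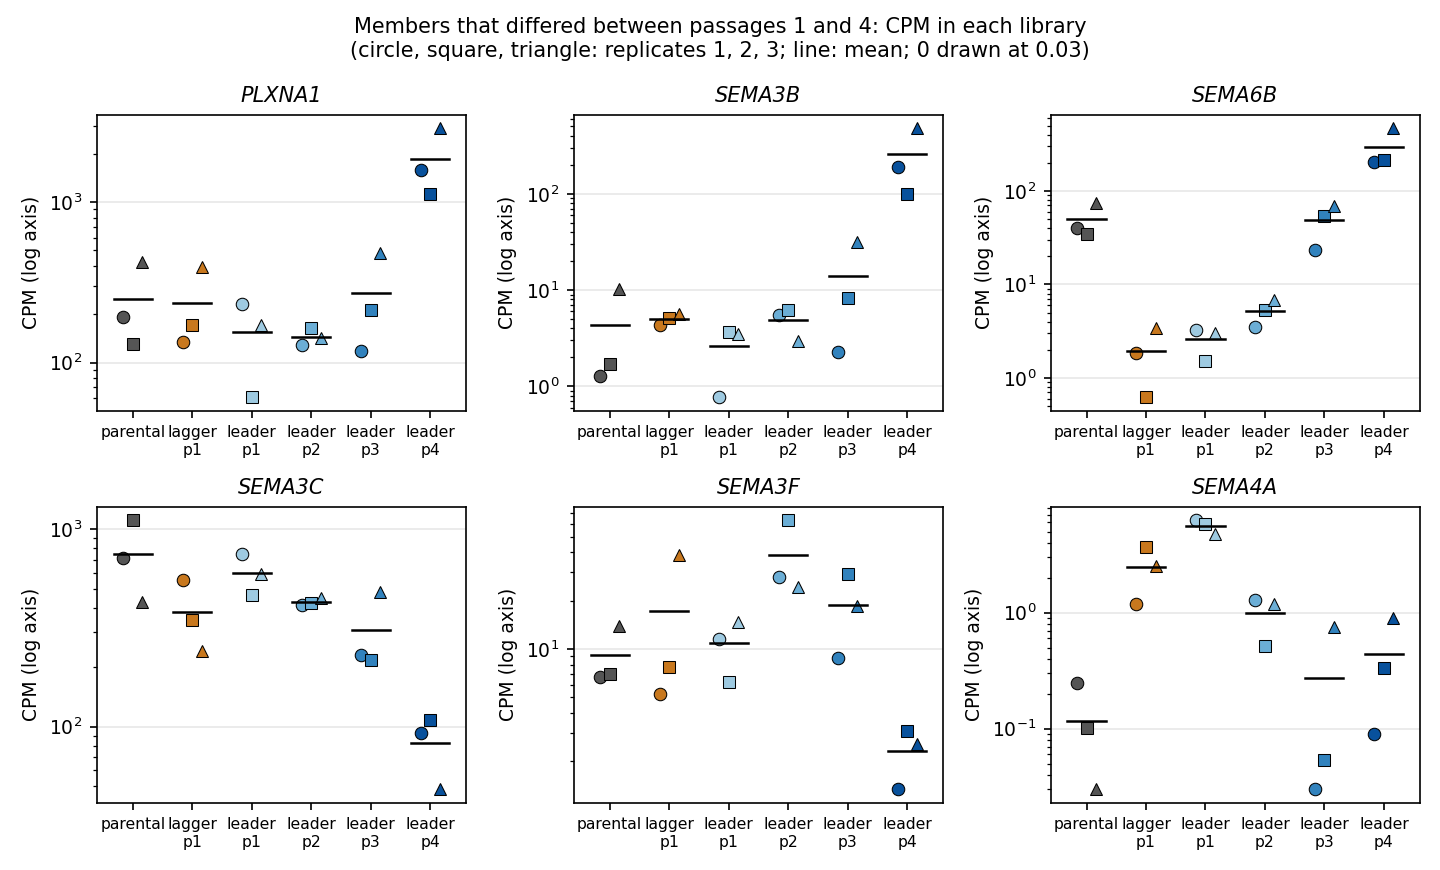
Each panel shows CPM on a log axis for 1 gene in all 18 libraries, by group, with 3 symbols for the replicates and a line at the mean, and with 0 CPM drawn at 0.03. PLXNA1, SEMA3B and SEMA6B stand above every other library at passage 4 (1124, 99.9 and 206 CPM at the lowest), SEMA3C and SEMA3F below, and SEMA4A is highest in passage 1 leaders.

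The genes beside these members were also read. Within 500 kb, 3 other genes near PLXNA1 were tested, of which 2 rose and 0 fell from passage 1 to 4 (over all genes 10.8% rose and 9.17% fell). One of them was CHST13, a chondroitin sulfotransferase, with a log2 change of 2.99 (edgeR adjusted p = 0.00149), but against parental cells none of the 3 was called. Of 29 tested genes near SEMA3B, 3 rose and 3 fell from passage 1 to 4, and 4 were higher and 5 lower than in parental cells (over all genes 14.8% and 12.9%). The member SEMA3F is among these 29 and is counted as lower in both comparisons (-2.21 and -1.97). Near SEMA6B 7 of 24 rose and 1 fell from passage 1 to 4, whereas against parental cells 1 was higher and 8 lower. There were 0 tested genes near SEMA3C.

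There were 6 tested members not called in any comparison: SEMA3A, SEMA4C, PLXNA3, PLXNB1, PLXNB2 and PLXNB3. SEMA3A stayed abundant, at 286 to 537 CPM in parental cells, 130 to 432 in laggers and 256 to 509 in leaders, and its change at passage 4 against parental cells was -0.09 (95% interval -0.80 to 0.63). With GC offsets it was called lower in laggers (-0.55) and passage 1 leaders (-0.62). SEMA4C, a ligand of PLXNB2, ranged from 16.2 to 54.8 CPM over all libraries. PLXNB2 ranged from 273 to 722.5 CPM, PLXNA3 from 21.5 to 75.6, PLXNB1 from 5.49 to 20.9 and PLXNB3 from 4.66 to 19.5. In passage 1 leaders PLXNB2 changed by -0.17 and PLXNB3 by -0.03, and with GC offsets by 0.85 and 1.09, called higher. SRPK3, a protein kinase gene on the same strand, overlaps 20.4% of PLXNB3 exon bases, so some reads could belong to either gene.

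The 6 members that did not pass the filter were PLXNA4, SEMA3E, SEMA4G, SEMA5A, SEMA5B and SEMA6D. The largest value among them was 2.37 CPM, for SEMA5B, a ligand with thrombospondin repeats, in parental replicate 3. Its counts were 9, 53 and 64 in the parental libraries and 6, 5 and 0 in laggers. All 12 leader libraries had 0 counts. Against a floor of 3 counts over a group, SEMA5B was at least 28.1-fold lower in passage 1 leaders than in parental cells, and at least 27.3-, 26.4- and 30.2-fold lower in those of passages 2, 3 and 4, with counting error only in view. These bounds pool the 3 parental libraries, which ran from 0.224 CPM in replicate 1 to 2.37 in replicate 3. Replicate 3 leaned most to GC-rich genes, and SEMA5B is 61.4% GC. PLXNA4 had 0 counts except for 8 at passage 4, and SEMA5A 0 except for 12 in passage 4 replicate 1. SEMA3E reached 30 counts in passage 2 leaders, SEMA4G at most 17 in a group and SEMA6D at most 2.

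Partners of the system were counted from lists chosen by known role, with earlier results of these data known. Of 25 co-receptors and other ligands, 15 were tested. Without GC offsets 2 rose and 1 fell from passage 1 to passage 4 leaders, near the 20% called over all genes. With GC offsets 3 rose and 4 fell, where 15.7% of all genes in that fit rose and 13.7% fell. VEGFA, a ligand of neuropilins, rose from 60.9, 47.4 and 52.1 CPM to 236, 328 and 598 (2.86 ± 0.33, edgeR adjusted p = 4.38e-05), with parental values of 57.3, 52.0 and 76.7. L1CAM, an adhesion molecule that joins NRP1 in the SEMA3A receptor, was lower at passage 1 and higher again at passage 4, at 71.3, 82.8 and 130 CPM in parental cells, 33.8, 27.5 and 35.4 in passage 1 leaders and 91.0, 68.0 and 117 at passage 4 (1.51 ± 0.33 from passage 1, edgeR adjusted p = 0.00479). NRCAM, which plays that part for NRP2, was highest in passage 1 leaders, at 7.88, 3.66 and 12.4 CPM, and fell by 3.34 to passage 4 (edgeR adjusted p = 0.0138). PGF, a ligand of NRP1, was lower than in parental cells in the leaders of all 4 passages, by 1.6 to 3.03 on the log2 scale. These 4 comparisons share the parental libraries.

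Of 43 intracellular effectors of plexins, 37 were tested. In passage 1 leaders 4 were higher and 19 lower than in parental cells, where 23.2% of all genes were higher and 22.4% lower, with a median log2 change of -0.63 beside 0.07 over all genes. From passage 1 to 4, 12 rose and 1 fell, where 10.8% of all genes rose and 9.17% fell, with a median of 0.47 beside -0.02. With GC offsets 4 were higher and 15 lower in passage 1 leaders, with a median of -0.42 (24.3% and 23.9% of all genes in that fit). From passage 1 to 4, 12 then rose and 2 fell, with a median of 0.27 (15.7% and 13.7% of all genes). DPYSL2, the collapsin response mediator that carries the SEMA3A signal to microtubules, went from 224, 241 and 242 CPM in parental cells to 52.7, 45.5 and 55.3 in passage 1 leaders and 107, 106 and 130 at passage 4 (1.16 ± 0.20 from passage 1, edgeR adjusted p = 0.000948). SSH1, a phosphatase that activates cofilin, went from 66.9, 71.6 and 94.6 CPM to 17.0, 16.7 and 18.8 and back to 74.4, 57.9 and 108 (2.19 ± 0.22, edgeR adjusted p = 1.19e-05). MICAL1, the enzyme that oxidises actin below A-class plexins, rose from 20.1, 24.8 and 21.9 CPM at passage 1 to 54.3, 46.7 and 87.7 at passage 4 (1.5 ± 0.30, edgeR adjusted p = 0.00282). Of 11 proteases that cleave semaphorins 8 were tested. From passage 1 to 4, 1 of them was called, where 20% of all tested genes were. With GC offsets 1 rose and 1 fell. The 1 called without offsets was FURIN, which processes class 3 ligands, from 47.7, 71.6 and 39.7 to 230, 111 and 153 CPM (1.63 ± 0.34, edgeR adjusted p = 0.00351).

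Markers of other cells were read beside these courses. Of 10 fibroblast markers, 8 were tested, and their sum was 122 to 255 CPM in parental cells, 1270 to 2150 in laggers, 1010 to 2310 in passage 1 leaders, 828 to 1520 and 552 to 1340 at passages 2 and 3, and 235 to 496 at passage 4. Laggers had 5 of these markers higher than parental cells and 0 lower, where 21.5% of all tested genes were higher. Passage 1 leaders had 5 higher and 1 lower, where 23.2% of all genes were higher and 22.4% lower. Later passages had 4, 3 and 3 higher (15.1%, 13.8% and 14.8% of all genes) and 0, 0 and 1 lower. From passage 1 to 4, 4 of these markers fell and 0 rose (9.17% and 10.8% of all genes), and SEMA3C fell as well. SEMA3C averaged 750 CPM in parental cells, where the marker sum was 122 to 255 CPM. In laggers it averaged 380 CPM, where that sum was 1270 to 2150 CPM. In the injected groups COL1A2 and COL3A1 made up most of the sum (719 and 952 CPM in passage 1 leaders, 70.5 and 285 at passage 4). COL1A1 went the other way, averaging 160 CPM in parental cells and 48.6 in laggers. Its leader means were 17.9, 23, 15.7 and 6.61 CPM from passage 1 to 4. PDGFRA averaged 0.112 CPM in parental cells and 63.7 at passage 2, where POSTN averaged 49.4, and DCN and LUM went from 0.187 and 0.118 CPM to 9.4 and 8.39 in laggers. FAP and THY1 averaged at most 0.383 CPM in any group. The Schwann sum was 236 to 283 CPM in parental cells, of which MBP made 200 to 235, and 32.8 to 97 in the injected groups. SOX10 and S100B averaged at most 0.128 CPM everywhere. Of 5 Schwann markers tested, 1 was higher and 1 lower than in parental cells in both passage 1 groups. At each later passage 0 were higher and 1 lower. CDH19 averaged 0 CPM in parental cells, 1.2 in laggers and 1.31 in passage 1 leaders. Macrophage markers summed to 2.27 to 5.88 CPM in laggers, 2.91 to 6.93 in passage 1 leaders and 10.8 to 35.1 at passage 4, where ITGAM averaged 20.9 CPM, with C1QA at 0 in all libraries. PTPRC, the CD45 gene of white blood cells, averaged 0 CPM in parental cells and laggers. Its leader means were 2.23, 3.09, 2.51 and 0.675 CPM from passage 1 to passage 4. Of the 4 macrophage markers tested, 1 was called higher than in parental cells in leaders of each of passages 1 to 3 and 2 at passage 4. In leaders of each of passages 1 to 4, 1 was called lower. CD68 averaged 0.731 CPM in parental cells and 0.105 at passage 4. Endothelial markers summed to at most 14.5 CPM with ERG at 0, and 1 of 5 tested was higher than in parental cells at passage 4. Neuronal markers summed to at most 24.4 CPM, with 3 tested. In laggers 2 of these 3 were higher than in parental cells, and again in passage 1 leaders. At passage 3, 1 was lower, and from passage 1 to 4, 2 fell. RBFOX3 averaged 0.0957 CPM in parental cells, 3.47 in laggers, 1.86 in passage 1 leaders and 0.175 at passage 4. The part of all these markers in the results was not tested.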

How the data were processed

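RNA from 2 ng inputs was made into SMART-Seq v4 libraries and sequenced as paired reads without strand information, per the labels' protocols. The authors deposited raw counts per gene for 18 libraries, 3 in each of 6 groups. The submitters' processing notes name cutadapt 1.6, STAR 2.5.0a, HTSeq 0.5.3 and DESeq 1.22.1, while the build and annotation used for counting were not given in the sources used here. The file also held 5 entries that name no gene (27.6% to 60.6% of all entries per library), which were left out. All 18 libraries were fitted together in edgeR 4.0.16 (R 4.3.3) with TMM scaling, the filterByExpr filter (16187 of 57445 genes tested) and the quasi-likelihood test, with Benjamini-Hochberg adjustment over all tested genes in each of 8 comparisons and 12 residual degrees of freedom. The dispersion common to all genes was 0.126, or 35.5% as a coefficient of variation. Libraries of a group differed beyond counting noise (chi-square per degree of freedom 20.6 to 232).

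Lengths, positions and GC content came from GENCODE 29 (GRCh38), which holds 51811 of the gene IDs and all 31 members, and promoters from RefSeq, where 27 members matched. The alternatives were RLE size factors, no filter, DESeq2 1.42.0, limma-voom (limma 3.58.1), only the compared groups, a replicate block and each replicate left out. Library totals without a TMM factor, and offsets for GC content and length with and without the block, were added after seeing the data. Members and lists were chosen with earlier results of these data known. Values are given library by library for members called in at least 1 comparison and with a group mean of at least 5 CPM, the rest by ranges and counts, and from each related list genes were drawn from the up to 4 with the smallest adjusted p. The scripts were tested on simulated data.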

Additional observations from a re-analysis of the deposited data

Results flagged for a closer look

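For 7 members the change against the parental line differed between passage 1 and passage 4 leaders, by the direct test of passage 4 against passage 1 (edgeR). The changes share the parental libraries, which drop out of that test.

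SEMA6B went from -4.24 to 2.57 (difference 6.81, edgeR adjusted p = 8.14e-06). For SEMA3B the change went from -0.72 to 5.89 (difference 6.60, edgeR adjusted p = 0.000663). PLXNA1 went from -0.69 to 2.91 (difference 3.60, edgeR adjusted p = 0.0013). The change of NRP2 shrank from -3.40 to -1.38 (difference 2.02, edgeR adjusted p = 0.00459). In the downward direction, SEMA3C went from -0.32 to -3.18 (difference -2.86, edgeR adjusted p = 0.000312). SEMA4A went from 5.45 to 1.81 (difference -3.64, edgeR adjusted p = 0.0178), and SEMA3F from 0.25 to -1.97 (difference -2.21, edgeR adjusted p = 0.0322). The differences of SEMA4A and SEMA3F were each lost with single libraries left out.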

How the results depend on the processing

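Of 69 called member values, 40 stayed called in every setting run, 29 were lost in at least 1, and 27 of those in at least 1 setting that left out a replicate. In passage 1 leaders against parental cells, PLXNB2 turned from -0.17 to 0.85 with offsets for GC content and length (0.845 with the replicate block added) and PLXNB3 from -0.03 to 1.09 (1.03 with the block). The number of called members went from 7 at passage 3 to 11 with these offsets, 12 with offsets and block, and 4 with the replicate block alone, and in laggers from 11 to 7 when only the compared groups were fitted. With 1 replicate left out, counts ran from 0 to 0 for leaders against laggers, 7 to 13 for laggers, 11 to 12, 7 to 9, 4 to 6 and 6 to 12 for passages 1 to 4 against parental cells, 5 to 7 for passage 4 against passage 1 and 6 to 8 for the slope. The deviations of same-numbered libraries correlated at -0.408 to 0.401 over 45 pairs, with a median of -0.0135, and 8 were over 0.1. Pairs of different number were not correlated, so whether a number marks a shared batch was not tested. The block alone gave 0, 11, 12, 9, 4, 13, 7 and 8 calls in the order above, with laggers second. It ended the calls against parental cells of SEMA4A at passage 2 (2.81), of PLXND1 (-1.04) and SEMA3C (-1.21) at passage 3, and of PLXNC1 at passages 1 and 3 (1.70 and 1.86). RLE size factors left every count as it was. Low counts limit SEMA4A, SEMA7A, PLXNA2 and PLXNC1.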

Other observations

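Of 24 genes of other guidance families (netrins, slits, their receptors and related cues), 14 were tested. From passage 1 to passage 4 leaders 3 rose and 1 fell, where 10.8% of all tested genes rose and 9.17% fell. With GC offsets 4 rose and 1 fell, where 15.7% of all genes in that fit rose and 13.7% fell. ROBO4, a Slit-family receptor known from endothelium, measured 6.12, 7.46 and 20.8 CPM in parental cells, 1.215, 0 and 0.125 in passage 1 leaders and 51.8, 17.3 and 21.2 at passage 4 (5.98 ± 0.94 from passage 1, edgeR adjusted p = 0.000553). Of 5 tested endothelial markers 1 was higher at passage 4 than in parental cells. ESAM averaged 1.29 CPM in passage 1 leaders and 3.94 at passage 4, VWF 1.73 and 3.76, and CDH5 5.19 and 0.834, with ERG at 0 in all libraries. Their part in the ROBO4 result was not tested. NTN4, a netrin of basement membranes, was at 0, 0 and 0.0370 CPM in parental cells, 11.2, 12.7 and 9.72 in passage 1 leaders and 0.268, 0 and 0.694 at passage 4 (-5.05 ± 0.83 from passage 1, edgeR adjusted p = 0.000767).

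Against the parental line 4 of the 14 tested guidance genes were higher and 4 lower in laggers. Leaders of passages 1 to 4 had 3 and 5, 2 and 4, 4 and 4, and 4 and 3. Over all genes 39.3%, 45.7%, 29.9%, 24.6% and 27.7% were called in these 5 comparisons, which share the parental libraries. The share of all genes called in all 5 was not counted. NEO1, the neogenin receptor of netrins and RGM proteins, was higher than in parental cells (3.38, 3.45 and 3.18 CPM) in all 5 injected groups, by 2.13 to 3.09 on the log2 scale. RTN4, which encodes the neurite growth inhibitor Nogo, was lower in all 5. It went from 573, 606 and 798 CPM to 307, 361 and 297 in passage 1 leaders (-1.04 ± 0.16, edgeR adjusted p = 0.000104).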
